A study of Mus musculus with 19 samples.

Results

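The genes described here are the subunits and feedback inhibitors of the transcription factor NF-kB, followed in mouse livers shortly after extended liver resection. The set was defined by name as 10 genes: the subunits Nfkb1, Nfkb2 and Rela, the cytoplasmic inhibitors Nfkbia, Nfkbib and Nfkbie, the nuclear relatives of these inhibitors Nfkbiz and Bcl3, and the ubiquitin-editing pair Tnfaip3 and Tnip1. Of these, 9 were represented among the 18193 genes with a probe set assigned to a single gene, and Nfkb1 had no such probe set in the annotation used. Where a gene had several probe sets, the brightest on average was used, and the others served as a check. A level filter (over log2 4 on at least 4 arrays) left 7 of the 9 among the 8515 genes tested, and Nfkb2 and Tnfaip3 did not pass it.

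Liver RNA was hybridised to 19 Affymetrix arrays, and each array was taken as 1 liver of 1 mouse. All mice were male C57BL/6 animals of 10 to 12 weeks, and all livers were taken 2 h after 85% of the liver had been removed. The livers came from 4 Ager/Myd88 null mice, which lacked both genes, 6 Ager null mice, 4 Myd88 null mice and 5 wild-type (WT) mice. RAGE, the product of Ager, is a receptor for danger signals released by injured cells. MyD88 is the adaptor that links most Toll-like receptors and the interleukin-1 receptor to NF-kB. The deletions were given without any tissue-specific promoter or Cre, and unresected livers were not analysed here, so every difference is between genotypes after resection.

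In resting cells, NF-kB dimers are held in the cytoplasm by IkB proteins. Signals that pass through Myd88 or RAGE activate the IKK kinases, IkB is degraded, and the freed dimers enter the nucleus and bind kB sites. Several of the genes they switch on encode their own brakes, among them Nfkbia and Tnfaip3, which makes the transcripts of these inhibitors a common readout of the pathway. In the liver, NF-kB activity belongs to the early priming response to resection and protects hepatocytes from tumour necrosis factor.

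Feedback genes of NF-kB are known for kB sites close to their starts, and 4 promoters are printed here because they belong to members described in detail and hold such letters. RefSeq promoter windows (mouse build GRCm38.p6, from 250 bases before to 50 bases after the start, written 5′ to 3′ on the strand of the gene) were found for 8 of the 10 genes, in 11 windows. A search of both strands for the kB consensus matched 8 of these windows, in 6 genes: Nfkb2, Nfkbia, Nfkbie, Bcl3, Tnfaip3 and Tnip1. The windows of Rela and Nfkbib held no match. No window was found for Nfkb1 or Nfkbiz, so their promoters were not searched and nothing is known here about sites in them. Of all 32851 promoter windows in the same table, 4.51% held the consensus. A match is a description of letters in the window and not evidence of binding. Capitals mark the matches, of which 3 overlap in Tnip1. The windows are Nfkbia at chr12:55492598-55492897, minus strand, Bcl3 at chr7:19822706-19823005, minus strand, Tnfaip3 at chr10:19015361-19015660, minus strand, and Tnip1 at chr11:54962891-54963190, minus strand.
Nfkbia: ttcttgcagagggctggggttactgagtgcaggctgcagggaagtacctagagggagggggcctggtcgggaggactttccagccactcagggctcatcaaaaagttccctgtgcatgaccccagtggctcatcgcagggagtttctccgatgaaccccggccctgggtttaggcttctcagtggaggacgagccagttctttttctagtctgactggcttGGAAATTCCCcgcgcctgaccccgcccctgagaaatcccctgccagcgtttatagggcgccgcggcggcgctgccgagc
Bcl3: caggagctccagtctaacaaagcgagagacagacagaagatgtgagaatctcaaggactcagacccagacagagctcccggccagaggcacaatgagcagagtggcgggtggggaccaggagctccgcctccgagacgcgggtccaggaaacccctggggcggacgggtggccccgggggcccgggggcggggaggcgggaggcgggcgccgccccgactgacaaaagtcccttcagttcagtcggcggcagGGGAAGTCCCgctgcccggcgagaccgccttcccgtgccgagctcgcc
Tnfaip3: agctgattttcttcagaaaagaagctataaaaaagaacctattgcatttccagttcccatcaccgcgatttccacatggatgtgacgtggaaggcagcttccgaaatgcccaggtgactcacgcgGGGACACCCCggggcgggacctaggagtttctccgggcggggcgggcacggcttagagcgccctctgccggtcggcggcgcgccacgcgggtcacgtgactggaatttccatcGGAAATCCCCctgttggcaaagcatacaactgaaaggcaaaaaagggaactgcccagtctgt
Tnip1: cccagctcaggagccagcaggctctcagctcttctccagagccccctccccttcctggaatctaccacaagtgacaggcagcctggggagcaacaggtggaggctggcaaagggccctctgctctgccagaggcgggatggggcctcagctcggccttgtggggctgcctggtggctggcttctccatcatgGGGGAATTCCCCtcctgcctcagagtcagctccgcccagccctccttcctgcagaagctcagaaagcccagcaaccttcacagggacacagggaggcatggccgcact

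The first base of the match lay 29 bases before the start in Nfkbia and at base 3 after the start in Bcl3. In Tnfaip3 the 2 matches began 125 and 12 bases before the start. In Tnip1 the run of overlapping matches began 58 bases before the start and holds the palindromic site GGGAATTCCC, which is also present in the first Nfkb2 window.

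**Figure D1:**
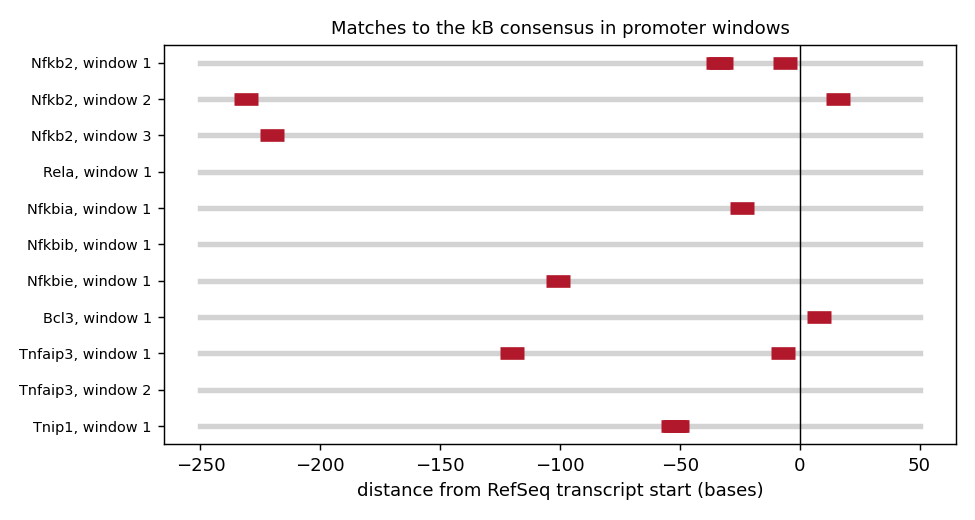
Position of kB consensus matches in the RefSeq promoter windows of 8 of the 10 NF-kB genes. Nfkb1 and Nfkbiz had no window and were not searched. The x axis gives the distance from the transcription start in bases, each row is 1 window, and each mark covers the bases of a match or of matches that overlap. Matches lie in 8 of the 11 windows, and the windows of Rela and Nfkbib and the second Tnfaip3 window have none.

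The labels were checked on the deleted genes. Myd88 averaged 3.45 ± 0.58 (log2, SD, n = 4) in Ager/Myd88 null livers and 3.49 ± 0.34 (n = 4) in Myd88 null livers, against 5.91 ± 0.38 (n = 6) in Ager null livers and 5.55 ± 0.29 (n = 5) in WT livers. The Ager probe set averaged between 3.10 and 3.37 in the 4 groups, under the level filter everywhere, so it checks nothing. All 9 hepatocyte markers on the array were over log2 4 in every liver, although 1 label text on extraction speaks of glomeruli, and 8 of 9 kidney and glomerulus markers were over that level on no array. Myd88 null 4 stood apart, with a median correlation to the other arrays of 0.965 against at least 0.979 for each of the others. In bulk tissue, fewer cells of a type and less RNA per cell cannot be told apart. An S number in the sample descriptions, whose meaning the labels do not state, puts all 6 Ager null livers in S13 to S20 and all 4 Ager/Myd88 null livers in S1 to S12.

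Across the set, 2 of the 9 comparisons gave a call for a member. Nfkbiz, which encodes IkB-zeta, a nuclear co-regulator induced by Toll-like and interleukin-1 receptor signals, fell in Ager/Myd88 null livers relative to Ager null livers. Bcl3, which encodes a nuclear IkB family member that pairs with the p50 and p52 subunits, had a negative interaction: its difference on Myd88 loss was lower in livers without Ager than in livers with Ager. These comparisons called 2.44% and 2.41% of all tested genes, 208 and 205 in number. When 1 array at a time was left out, these counts ran from 18 (without Ager/Myd88 null 3) to 368 (without Myd88 null 1) in the first comparison. In the interaction they ran from 0 (without Myd88 null 3, Myd88 null 4 or Ager/Myd88 null 3) to 1739 (without Myd88 null 1). In the other 7 comparisons 0 of the 7 tested members were called by limma. The share of all tested genes called was 0.317% for Ager/Myd88 null against WT, 1.26% for Ager null against WT and 0.399% for Myd88 null against WT. It was 0.153% for Ager/Myd88 null against Myd88 null livers and 1.26% for Ager null against Myd88 null livers. For the pooled loss of Myd88 and of Ager it was 0.517% and 0.294%. At an unadjusted p under 0.05, the count of members is given here beside the share of all tested genes with such a p. Against WT there were 2 of 7 for Ager/Myd88 null livers (8.57%), 2 for Ager null livers (21.6%) and 1 for Myd88 null livers (19.6%). Ager/Myd88 null livers gave 3 against Ager null livers (22.7%) and 2 against Myd88 null livers (16.1%), and Ager null livers gave 2 against Myd88 null livers (15.9%). The pooled loss of Myd88 gave 4 (15.2%), the pooled loss of Ager 1 (9.41%) and the interaction 1 (27.2%).

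The values of Nfkbiz (NCBI gene 80859) were 7.95, 8.87, 7.89 and 8.22 (log2) in the 4 Ager/Myd88 null livers. The Ager null livers ran from 8.48 through a median of 9.30 to 10.22, the Myd88 null livers had 8.60, 9.45, 9.36 and 8.89, and the WT livers had 9.31, 9.40, 9.06, 9.79 and 9.43. Every Ager/Myd88 null liver lay below every WT liver, whereas Ager/Myd88 null 2 lay above the lowest Ager null liver and the lowest Myd88 null liver.

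Group means of Nfkbiz were 8.23 ± 0.45 (log2, SD, n = 4) in Ager/Myd88 null livers, 9.36 ± 0.60 (n = 6) in Ager null livers, 9.07 ± 0.40 (n = 4) in Myd88 null livers and 9.40 ± 0.27 (n = 5) in WT livers. The difference between Ager/Myd88 null and Ager null livers was -1.13 ± 0.28 (log2, SE, adjusted p = 0.0459), a fold of 0.458 with a 95% interval of 0.306 to 0.685. That comparison called 0.846% of all tested genes and 1 of 7 members in the lower direction, the member with an adjusted p close to the threshold. The members were chosen with earlier results of these data known. Setting these shares side by side is therefore a description and not an independent test. Against WT livers the Ager/Myd88 null difference was of about the same size, -1.17 ± 0.29, but its adjusted p was 0.131. Non-overlap in the lower direction between these groups was found for 0.799% of tested genes.

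In livers with a single deletion, Nfkbiz was called in no comparison with WT. The Ager null difference from WT was -0.04 ± 0.26 (adjusted p = 0.941, 95% interval -0.59 to 0.50) and the Myd88 null difference from WT was -0.32 ± 0.29 (adjusted p = 0.545). The interaction, which tests whether the difference on Myd88 loss is unequal in the 2 Ager backgrounds, was -0.80 ± 0.40 and was not called, so the Nfkbiz difference was not shown to depend on the Ager background. Over both backgrounds, livers without Myd88 differed from livers with Myd88 by -0.73 ± 0.20 (adjusted p = 0.0894).

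The second Nfkbiz probe set, with a mean of 4.19 (log2) over all arrays, gave -1.22 for Ager/Myd88 null against Ager null livers, and the third, under log2 4 on every array, gave 0.10. The Nfkbiz call held in 7 of 19 fits that each left out 1 liver, with estimates between -1.34 and -0.95. It was lost without WT 1 or 2, Ager null 1, 2, 3, 4 or 6, Myd88 null 2 or 3, or Ager/Myd88 null 1, 3 or 4, with adjusted p between 0.0535 and 0.171, and it was kept without Myd88 null 4 (adjusted p = 0.04). No S range held both genotypes. With the S range as a block the estimate was -1.22 with an adjusted p of 0.237. That fit links the ranges only through WT 5 and Myd88 null 4, the livers of other genotypes in S13 to S20. Within S1 to S6 and S7 to S12 the Ager/Myd88 null difference from WT was -0.94 and -1.37.

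**Figure D2:**
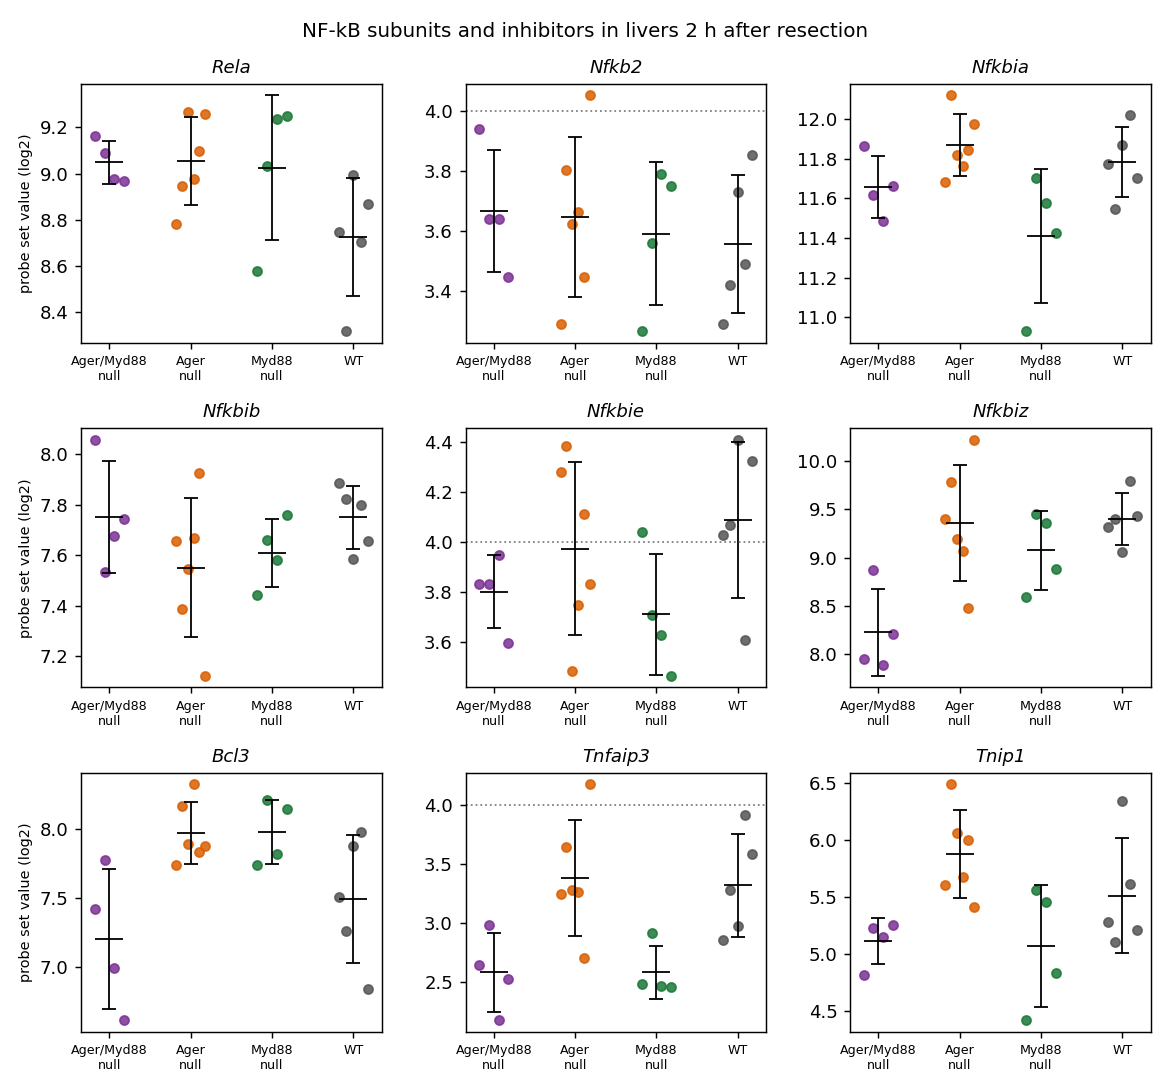
Log2 probe set value (y axis) of each of the 9 genes in each liver, with Ager/Myd88 null, Ager null, Myd88 null and WT livers from left to right. Points are livers, bars are group means with SD, the dotted line is the filter level of log2 4, and the Nfkbiz values of the Ager/Myd88 null livers all lie below those of the WT livers.

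Bcl3 (NCBI gene 12051) showed another order of groups. Its values were 7.42, 7.78, 6.996 and 6.62 (log2) in Ager/Myd88 null livers, ran from 7.74 through a median of 7.88 to 8.32 in Ager null livers, were 7.74, 8.20, 7.82 and 8.14 in Myd88 null livers, and were 7.51, 7.27, 7.88, 7.98 and 6.84 in WT livers. Both single-deletion groups sat at the top of the range, the Ager/Myd88 null and WT livers spread lower, and each of these groups overlapped every other.

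Bcl3 averaged 7.20 ± 0.50 (log2, SD, n = 4) in Ager/Myd88 null livers, 7.97 ± 0.22 (n = 6) in Ager null livers, 7.98 ± 0.23 (n = 4) in Myd88 null livers and 7.49 ± 0.46 (n = 5) in WT livers. The interaction, the difference of Ager/Myd88 null and Ager null livers minus that of Myd88 null and WT livers, was -1.25 ± 0.32 (adjusted p = 0.0491), and 1.83% of all tested genes were called with a negative interaction. None of the differences that make it up was called: Ager/Myd88 null minus Ager null was -0.77 ± 0.22 (adjusted p = 0.0738) and Myd88 null minus WT was 0.48 ± 0.23 (adjusted p = 0.261). Against WT, Ager null livers differed by 0.48 ± 0.21 (adjusted p = 0.198) and Ager/Myd88 null livers by -0.29 ± 0.23 (adjusted p = 0.782). These comparisons share the WT or the Ager/Myd88 null livers and are given side by side.

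The Bcl3 call held in 5 of 19 fits that each left out 1 liver, those without WT 3 or 4, Ager null 1, Myd88 null 1 or Ager/Myd88 null 2. It was lost without WT 1, 2 or 5, Ager null 2, 3, 4, 5 or 6, Myd88 null 2, 3 or 4, or Ager/Myd88 null 1, 3 or 4, with adjusted p between 0.0518 and 0.112, while the estimate stayed between -1.44 and -1.05. Without Myd88 null 4, the array that stood apart, the interaction was -1.19 (adjusted p = 0.108). Within S1 to S6 and S7 to S12, the Ager/Myd88 null difference from WT was 0.21 and -1.12, so its sign differed between the ranges, and the Myd88 null difference from WT was 0.59, -0.11 and 1.30 in the 3 ranges. With the S range as a block the interaction was -1.56 (adjusted p = 0.174), in a fit that links S13 to S20 to the other ranges only through WT 5 and Myd88 null 4.

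**Figure D3:**
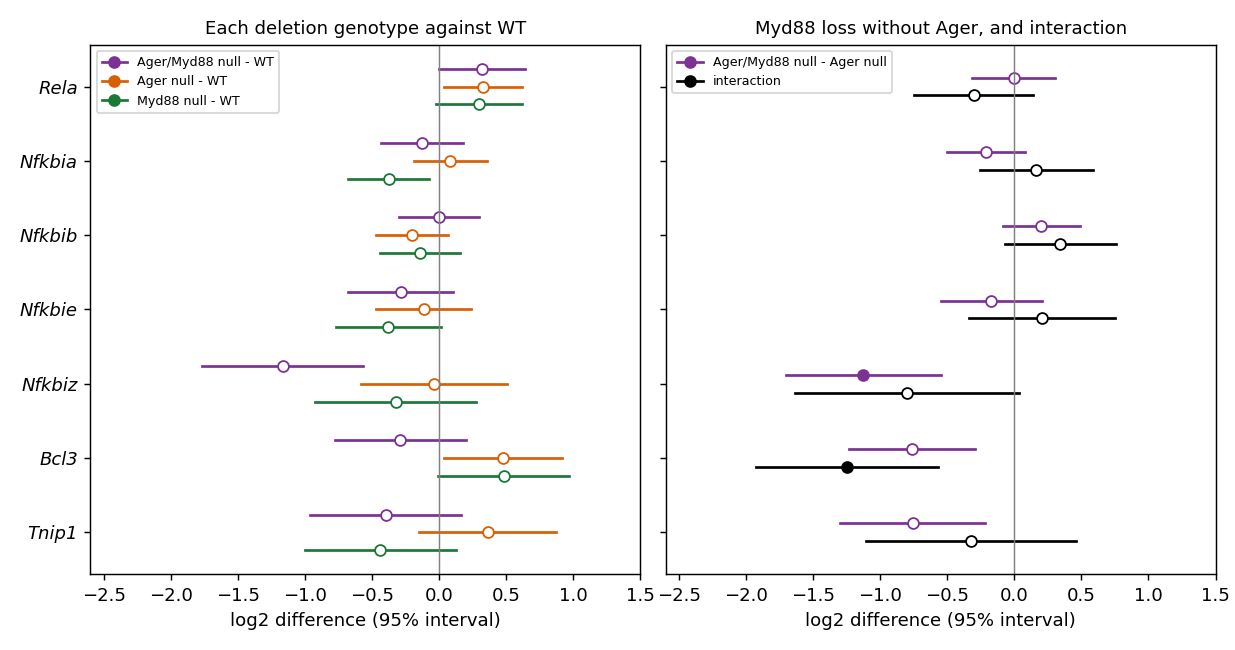
Log2 differences (x axis, bars are 95% intervals) of the 7 tested NF-kB genes between genotypes, with each deletion genotype against WT on the left, and Ager/Myd88 null against Ager null livers and the interaction on the right. Filled points passed an adjusted p of 0.05, which only Nfkbiz in Ager/Myd88 null against Ager null livers and Bcl3 in the interaction did.

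The A20 module consists of Tnfaip3, which encodes the ubiquitin-editing enzyme A20 that ends IKK activation, and Tnip1, which encodes the A20-binding protein ABIN-1. Tnip1 had 4.82, 5.23, 5.15 and 5.25 (log2) in Ager/Myd88 null livers, 5.42 to 6.49 with a median of 5.84 in Ager null livers, 4.42, 5.57, 5.46 and 4.84 in Myd88 null livers, and 5.28, 5.11, 6.34, 5.62 and 5.21 in WT livers. Every Ager/Myd88 null liver was below every Ager null liver, which in the lower direction was the case for 3.55% of tested genes, and the other groups overlapped. The Tnip1 difference between Ager/Myd88 null and Ager null livers was -0.76 ± 0.26 (adjusted p = 0.106), and that between livers without and with Myd88 was -0.60 ± 0.19 (adjusted p = 0.129), neither of them called.

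Tnfaip3 lay near the low end of the array's range, over log2 4 in 1 of 19 livers, and was left out of the tests by the filter. It had 2.65, 2.98, 2.18 and 2.52 (log2) in Ager/Myd88 null livers, 2.70 to 4.18 with a median of 3.27 in Ager null livers, 2.48, 2.92, 2.47 and 2.46 in Myd88 null livers, and 2.85, 3.28, 2.98, 3.92 and 3.58 in WT livers. The livers without Myd88 sat at the low end, and the ranges overlapped through Ager/Myd88 null 2 and Myd88 null 2. In a fit without the filter, over 18193 genes, livers without Myd88 differed from livers with Myd88 by -0.77 ± 0.17 for Tnfaip3, with an unadjusted p of 0.000292 and an adjusted p of 0.0783. The dimmer second Tnfaip3 probe set gave -0.34 for the same difference.

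Among the cytoplasmic inhibitors, Nfkbia encodes IkB-alpha, the classical rapidly resynthesised inhibitor. Its values were 11.87, 11.62, 11.48 and 11.66 (log2) in Ager/Myd88 null livers, 11.68 to 12.12 with a median of 11.83 in Ager null livers, 10.93, 11.70, 11.58 and 11.43 in Myd88 null livers, and 11.77, 11.55, 11.87, 12.02 and 11.70 in WT livers. The groups overlapped, with Myd88 null 1 the lowest liver. The largest of its 6 differences between pairs of genotypes was that of Ager null minus Myd88 null livers, 0.46 ± 0.14 (adjusted p = 0.105), which was not called. Its second probe set gave 0.70 for that difference (adjusted p = 0.0499 over 45037 probe sets), and the other 3 gave 0.12, 0.36 and 0.25 and were not called. Nfkbia differed by -0.37 ± 0.14 between Myd88 null and WT livers (adjusted p = 0.178), by -0.13 ± 0.14 between Ager/Myd88 null and WT livers (adjusted p = 0.855) and by -0.29 ± 0.10 between livers without and with Myd88 (adjusted p = 0.173). All 5 Nfkbia probe sets had a negative estimate in the last of these comparisons, between -0.42 and -0.15, and these probe sets measure the same RNA.

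Nfkbib, which encodes IkB-beta, and Nfkbie, which encodes IkB-epsilon, were called in no comparison. Nfkbib lay between 7.12 and 8.06 (log2) in all livers, and Ager/Myd88 null and WT livers differed by 0.00 ± 0.14 for it (95% interval -0.30 to 0.30). Nfkbie lay between 3.47 and 4.41, at the edge of the filter, with -0.38 ± 0.19 for Myd88 null against WT livers (adjusted p = 0.271). Nfkbie lies on chromosome 17, as Ager does, with 363 annotated genes between them.

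Of the subunits, Rela encodes p65, the main transactivating partner, and Nfkb2 encodes p100, the precursor of p52. Rela had 9.16, 9.09, 8.98 and 8.97 (log2) in Ager/Myd88 null livers, 8.78 to 9.27 with a median of 9.04 in Ager null livers, 8.58, 9.03, 9.24 and 9.25 in Myd88 null livers, and 8.74, 8.32, 8.99, 8.70 and 8.87 in WT livers. The WT livers lay toward the low side and overlapped each deletion group. The 3 differences from WT, which share the WT livers, were 0.32 ± 0.15 for Ager/Myd88 null, 0.33 ± 0.14 for Ager null and 0.30 ± 0.15 for Myd88 null livers, and none was called (adjusted p = 0.580, 0.175 and 0.286). Nfkb2 lay between 3.27 and 4.05 in all livers and was over log2 4 in 1 of them. Its 2 probe sets gave 0.03 and -0.30 for livers without against livers with Myd88, so they did not give the same picture.

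**Figure D4:**
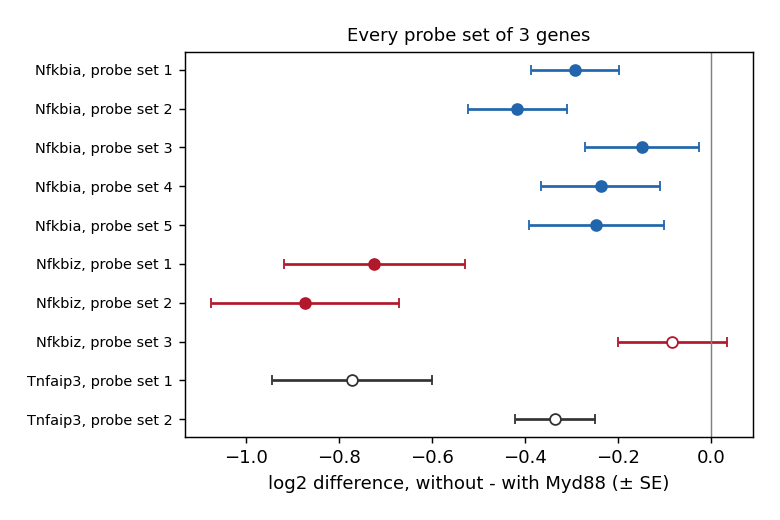
Log2 difference between livers without and with Myd88 (x axis, ± SE), pooled over both Ager backgrounds, for every probe set of 3 of the genes, with open points for probe sets whose mean over all arrays is under log2 4. The 5 Nfkbia probe sets lie between -0.42 and -0.15, and the third Nfkbiz probe set lies near 0.

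As a group, the 7 tested members had a median difference of -0.21 (log2) between Ager/Myd88 null and Ager null livers, against 0.04 over all tested genes. Between livers without and with Myd88 the median was -0.27 against 0.06 over all tested genes. For Ager null against WT livers it was 0.08 against 0.02. Against WT it was -0.29 for Ager/Myd88 null livers (0.07 over all tested genes) and -0.32 for Myd88 null livers (0.06). Against Myd88 null livers it was 0.04 for Ager/Myd88 null livers (-0.001) and 0.26 for Ager null livers (-0.05). The pooled loss of Ager gave -0.01 (0.01) and the interaction -0.31 (-0.02). Some of these medians are the estimate of Nfkbie itself. Among them are -0.27 for livers without and with Myd88 and -0.29 for Ager/Myd88 null against WT livers. Nfkbie passed the filter mainly in livers with Myd88. It was over log2 4 in 4 WT and 3 Ager null livers, against 1 Myd88 null and 0 Ager/Myd88 null livers. The medians are therefore a description and not a test of the group. The levels of the marker lists of all cell types examined are given beside these differences. The hepatocyte marker mean was 14.05 (log2) in Ager/Myd88 null, 14.19 in Ager null, 14.17 in Myd88 null and 14.08 in WT livers. The mean of the 13 Kupffer cell markers was 8.78, 8.62, 8.20 and 8.85 in the same order of groups, with the lowest liver, Myd88 null 4, at 6.87. Of 10 neutrophil markers on the array only S100a8 and S100a9 passed the filter, averaging 10.11, 9.98, 9.64 and 10.49 in that order, and Mpo, Elane, Ngp, Camp, Cxcr2 and Mmp9 were over log2 4 on no array. Of the 9 T and NK cell markers measured, 0 exceeded log2 4 in any liver. The endothelial markers, 10 of 10 tested, averaged 7.06, 7.09, 7.03 and 6.92. Stellate cell and fibroblast markers, 8 of 10 tested, averaged 6.93, 7.11, 6.77 and 6.64. Col1a2, a collagen gene, lay near the filter level, with a mean of 3.82 (log2) and only 5 arrays over log2 4. Col1a2 was called lower in Ager/Myd88 null than in Ager null livers (-0.64, adjusted p = 0.0475). It was also called higher in Ager null than in WT livers (0.72, adjusted p = 0.0357). These calls share the Ager null livers. In Ager null against Myd88 null livers, 1 of the 8 tested markers of this list was also called higher. B and plasma cell markers, 3 of 6 tested, averaged 4.81, 4.38, 4.80 and 4.06. Igha, the immunoglobulin A heavy chain gene, was called higher than in WT in Ager/Myd88 null (2.17), Ager null (1.35) and Myd88 null livers (2.04). In the pooled loss of Myd88, 1 of the 3 tested B and plasma cell markers was called higher. Of 4 cholangiocyte markers, 1 was tested, at 3.63, 3.72, 4.11 and 3.74. The part of these cell types in the results was not tested.

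Genes that act upstream were taken from lists of kinases and ubiquitin regulators. Of 13 IKK and upstream kinase genes on the array, 10 were tested and 0 were called in any of the 9 comparisons by limma. The smallest p was that of Tab3, an adaptor of the TAK1 kinase, with 0.91 ± 0.29 for Myd88 null against WT livers (adjusted p = 0.116). Tab3 lay near the filter level, averaging 4.88 ± 0.86 (log2, SD) in Myd88 null livers and 3.97 ± 0.34 in WT livers. Of 20 TRAF and ubiquitin regulator genes, 17 were tested. Rnf31, which encodes HOIP, the catalytic subunit of the linear ubiquitin ligase that acts on the IKK complex, rose in Myd88 null livers, averaging 4.78 ± 0.13 (log2, n = 4) in Myd88 null livers and 4.20 ± 0.22 (n = 5) in WT livers. The difference for Rnf31 was 0.58 ± 0.11 (adjusted p = 0.0243), in a comparison that called 0.317% of tested genes higher, and that over both Ager backgrounds was 0.37 ± 0.08 (adjusted p = 0.0341). Itch, which encodes a ubiquitin ligase that works with A20, fell in Ager/Myd88 null livers, averaging 8.80 ± 0.16 (n = 4), against 9.32 ± 0.19 (n = 6) in Ager null livers, a difference of -0.51 ± 0.13 (adjusted p = 0.0499). Its interaction was -0.79 ± 0.19 (adjusted p = 0.0444), negative like that of Bcl3. With the mean of all Itch probe sets these 2 values were -0.07 and -0.15 and were not called. Traf6, the ubiquitin ligase directly below Myd88, gave 0.73 ± 0.19 for Myd88 null against WT livers and was not called (adjusted p = 0.0679). Its values lay near the filter level, from 3.74 to 4.88 (log2) in Myd88 null livers and from 3.21 to 3.82 in WT livers.

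Of 33 known NF-kB target genes on the array, 15 passed the filter. For them the median difference was -0.68 (log2) between Ager/Myd88 null and WT livers, -0.64 between Ager/Myd88 null and Ager null livers and -0.23 between Myd88 null and WT livers, against 0.07, 0.04 and 0.06 over all tested genes. It was -0.08 for Ager null against WT, -0.44 for Ager/Myd88 null against Myd88 null and 0.15 for Ager null against Myd88 null livers. The pooled loss of Myd88 gave -0.38, the pooled loss of Ager -0.31 and the interaction -0.16. Some of these genes lay near the filter level. Cxcl2 was at most 3.35 in Ager/Myd88 null livers, and Ccl2 was at most 4.02 in Myd88 null livers against 4.30 to 5.38 in WT livers. Such genes passed the filter mainly through livers where they were higher, which can shape these medians. The medians are therefore a description and not a test. Of the 15, 1 was called lower and 0 higher in each of 3 comparisons, and 0 were called in the other 6 by limma. Cxcl10, a chemokine for T cells, fell in Ager/Myd88 null livers to 4.34 ± 0.19 (n = 4), against 6.22 ± 0.95 (n = 5) in WT livers, a difference of -1.88 ± 0.39 (adjusted p = 0.0437). Irf1, an interferon-pathway transcription factor, fell by 0.45 on the log2 scale (SE 0.10, adjusted p = 0.0414) in livers without Myd88 against livers with Myd88, and the 2 sets of livers did not overlap, as for 0.0705% of tested genes in that direction. Junb, an AP-1 subunit, had an interaction of -1.01 ± 0.26 (adjusted p = 0.0491). The neutrophil chemokine Cxcl1 averaged 7.57 ± 1.59 in Ager/Myd88 null livers, 10.20 ± 1.91 in Ager null livers, 8.96 ± 0.68 in Myd88 null livers and 11.27 ± 0.88 in WT livers, and was called in no comparison (adjusted p = 0.102 for Ager/Myd88 null against WT). When single livers were left out in turn, the calls of Rnf31 held in 16 of 19 fits (Myd88 null against WT) and 11 of 19 (pooled), those of Itch in 3 and 7, and those of Cxcl10, Irf1 and Junb in 6, 7 and 3, each with its sign unchanged. Of the other NF-kB family genes Rel, Relb, Nfkbid and Nfkbil1, only Nfkbil1 passed the filter, and it was not called.

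Variation between livers of the same genotype was compared for the 36 pairs of the 9 measured members, after removal of group means. Nfkbiz and Tnfaip3 varied together, with a Pearson r of 0.85 over 19 livers (permutation p = 5e-05, adjusted over the 36 pairs 0.0018) and a Spearman rho of 0.74 (permutation p = 0.00111, adjusted 0.040). Without Ager null 5 and 6, the livers farthest from the Nfkbiz median, r was 0.73. Within S1 to S6 (6 livers) and S13 to S20 (8 livers) r was 0.68 and 0.96, and the latter range includes Ager null 5 and 6. The Tnfaip3 values behind this relation lie mostly under log2 4. With the mean of all probe sets per gene r was 0.68.

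Nfkb2 and Rela gave r = 0.69 (permutation p = 0.00265, adjusted 0.0477) and rho = 0.68 (permutation p = 0.00523, adjusted 0.094), with r = 0.63 without Ager null 1 and 6. The Nfkb2 values were over log2 4 on 1 array only. Of the 36 pairs 23 were positive, with a median r of 0.13, and the other 34 pairs had adjusted p-values over 0.05. Arrays share their normalisation, which is common to both members of every pair.

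**Figure D5:**
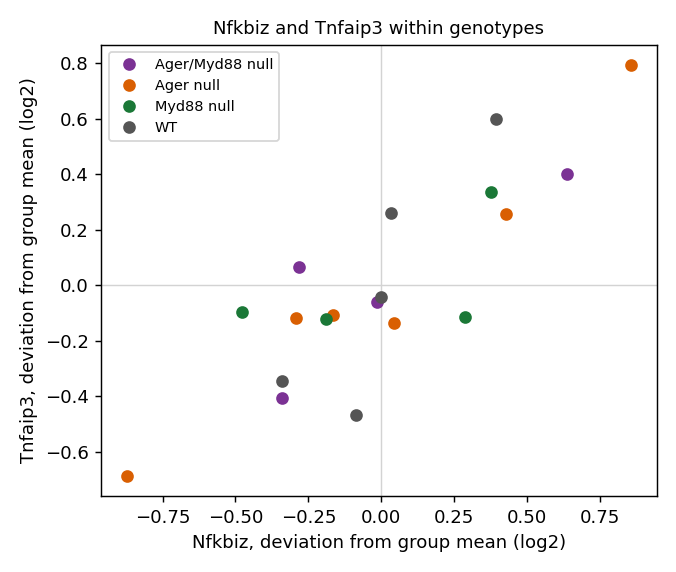
Deviation of each liver from its group mean for Nfkbiz (x axis, log2) and Tnfaip3 (y axis, log2), with 1 point per liver coloured by genotype. The points rise together (r = 0.85 over 19 livers), with Ager null 6 at the top right and Ager null 5 at the bottom left.

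Among the other tested genes, those whose levels followed Nfkbiz most closely over the 19 livers were Ppip5k2 (r = 0.78), Cxcl1 (r = 0.75), Rnd3 (r = 0.72), Serinc3 (r = 0.72) and Socs3 (r = 0.70). For Bcl3 they were Irs2 (r = 0.90), Fam222b (r = 0.88), Adgrl2 (r = 0.87), Fads6 (r = 0.87) and Creb1 (r = 0.86). Irs2 encodes an insulin receptor substrate and Creb1 a cAMP-responsive transcription factor. For Nfkbia they were Slc39a4 (r = 0.79), Cct2 (r = 0.78), C9 (r = 0.75), Apobec1 (r = 0.73) and Socs2 (r = 0.73). These are the highest of 8515 correlations for each gene, include differences between genotypes, and are given as a description.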

How the data were processed

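The authors deposited log2 probe set values, computed with GCRMA 2.16 per the submitters' processing notes. GCRMA corrects the background from probe sequence, normalises the arrays together and summarises each probe set. RNA was labelled with a 3' IVT kit, per the labels' protocols. The values ran from 0.744 to 15.62 and were used as deposited. Of 45101 probe sets, 64 were controls, and 34945 carried 1 gene symbol, 932 several and 9160 none in the platform annotation. Only those with 1 symbol were used.

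A single linear model held the 4 genotypes, fitted by lmFit and eBayes of limma 3.58.1 under R 4.3.3. Tests were two-sided, adjusted by Benjamini-Hochberg over 8515 genes, and called at an adjusted p under 0.05. There were 9 comparisons: 6 between pairs of genotypes, the pooled loss of Myd88 and of Ager, and the interaction. The pooled comparisons weight the genotypes equally. Pairwise correlations used 100000 permutations within groups. The analysis was tested on simulated data. The labels name no separate cultures or litters, so each array was taken as 1 mouse, and p-values measure the spread between these arrays. The number of arrays limits the precision. No array repeated another: the closest arrays of the same genotype were 0.328 apart (log2, root mean square over genes).

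The members and gene lists were chosen with earlier results of these data known. All 10 members are named, with the called genes of the other lists, up to 4 of the smallest p in each list, and the 5 genes most like Nfkbia, Nfkbiz and each called member. Alternatives covered the probe set rule, the filter, scaling, blocks, array weights, the variance model and single arrays. Replicate numbers did not pair the arrays: over 25 same-number pairs the correlation of deviations ran from -0.30 to 0.47, with a median of 0.05.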

Additional observations from a re-analysis of the deposited data

Results flagged for a closer look

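Tnfaip3, the gene of the deubiquitinase A20, had 1 liver apart from the rest of its group. Myd88 null 2 had 2.92 (log2), whereas the nearest of the other 3 Myd88 null livers had 2.48, a gap that took up 0.948 of the range of the group. Of the 36 groups of member values tested in this way, 1 was flagged, which is no more than the share of about 1 in 20 that chance gives. All of these values lie under log2 4.

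The Bcl3 difference on Myd88 loss was called as unequal in the 2 Ager backgrounds. That call held in only 5 of 19 fits that each left out 1 liver. The interaction was -1.25 (log2, adjusted p = 0.0491), made up of -0.77 for Ager/Myd88 null minus Ager null livers and 0.48 for Myd88 null minus WT livers. Neither of these differences was called, and no S range held both Ager null and Ager/Myd88 null livers.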

How the results depend on the processing

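The Nfkbiz call in Ager/Myd88 null against Ager null livers held in 15 of 30 alternatives and the Bcl3 interaction in 9 of 29, with the same sign in every alternative of each and adjusted p-values of 0.0212 to 0.237 and 0.0098 to 0.174. For Ager/Myd88 null against Ager null livers, the count of members called, 1 as reported, was 0 with no filter, 0 with the S range as a block, 0 with only the 2 groups compared and 3 with array weights, and 0 to 2 when single arrays were left out. For the interaction, 1 as reported, it was 0 with no filter, with values under log2 4 set to 4, with quantile normalisation, with median centring, with the S range as a block and with the replicate block, and 0 to 1 when single arrays were left out. With a count of 0 as reported, the replicate block gave 1 in Ager/Myd88 null against WT livers (Nfkbiz, -1.25, adjusted p = 0.0270), array weights gave 2 in Ager/Myd88 null against Myd88 null livers (Nfkbiz and Bcl3), and median centring gave 1 in Ager null against Myd88 null livers (Nfkbia). Leaving out single arrays gave 0 to 1 in livers without against livers with Myd88, where leaving out Ager null 5 called Nfkbiz (-0.81, adjusted p = 0.0451), and 0 in the other comparisons. The cause of these shifts was not tested. The 2 pair correlations past the threshold became 1 with quantile normalisation and 1 with the mean of probe sets. The replicate numbers share only a number: 3 of 19 arrays correlated best with their own number.

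Counts over all genes moved too. The interaction called 205 genes as reported, 1382 with array weights, 0 with the S range as a block and 0 to 1739 when single arrays were left out. In Ager/Myd88 null against Ager null livers the count was 208 as reported, 91 with no filter, 120 with the S range as a block, 619 with array weights and 18 to 368 when single arrays were left out. In Myd88 null against WT livers it was 34 as reported, 785 with array weights and 10 (without Myd88 null 4) to 987 (without Myd88 null 1). Tnfaip3, Nfkb2 and Nfkbie lie near or under log2 4, where the array shows little signal over background.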
